A study of Arabidopsis thaliana with 18 samples.

Results

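The first pair of leaves of P10 was compared with that of P21 at 16 days after stratification (DAS), when these leaves were in the expansion stage. P10 and P21 are independent Arabidopsis thaliana Col-0 lines in which the constitutive 35S promoter of cauliflower mosaic virus drives a sense PID cDNA, so both overexpress PID wherever that promoter is active, and each is a single line. The comparison held 3 libraries of P10 (replicates 1 to 3) and 2 of P21 (replicates 2 and 3), that is 5 of the 18 libraries of the study, of which 16 have values here. P21 replicate 1 was not analysed here. WT Col-0 at 16 DAS (3 libraries) was measured the same way and stands beside both lines. All plants grew untreated on half-strength MS medium with sugar at 21°C in long days. All 8 libraries at 16 DAS carry the same second index, so that index does not separate the groups. The labels number the replicates but do not say whether they came from separate sets of plants, so the p-values measure the spread between samples. That spread was estimated for each gene over all 16 libraries with values, not over the 5 compared alone.

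PID (PINOID) is a protein kinase of the AGC family that phosphorylates PIN proteins, the auxin efflux carriers of the plasma membrane, and thereby shifts the side of the cell on which they sit. Auxin gradients set by these carriers pattern the young leaf and act on cell division and expansion. In a maturing leaf, growth, photosynthesis and mineral supply are tied to other signals, among them abscisic acid (ABA), the hormone of water deficit, cytokinin, which reports nitrogen supply, and sucrose and light, which promote anthocyanin pigments.

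Unique gene reads per library were 1193042 to 2611737 in P10, 2713255 and 3824764 in P21, and 1516784 to 4695692 in WT. The 100 genes with most reads held 26.0% to 28.1% of the reads in P10, 32.8% and 34.9% in P21, and 31.5% to 33.1% in WT. Values below are counts per 1000000 unique gene reads (CPM), scaled by edgeR's TMM factors, and the test is edgeR's quasi-likelihood test with Benjamini-Hochberg adjustment over 16499 genes. DEGs had to pass an adjusted p of 0.05 and to differ by more than 0.75 on the log2 scale. Each log2 ratio is P10 over P21 at 16 DAS, with its standard error (SE), unless another pair is named. Of the 5 shoot meristem markers, STM, WUS and CLV3 had 0 reads in all 8 libraries, KNAT1 had 0, 1 and 1 reads in P10 and none in P21 or WT (tested and not called), and KNAT2 had 2, 0 and 3 reads in P10 and none in P21 or WT (not tested). No flower or root marker had more than 6 reads in a library.

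By these rules 2459 genes were DEGs between P10 and P21, which is 14.9% of the genes tested. Of these, 1252 (7.59% of the genes tested) were higher in P10 and 1207 (7.32%) lower. Counts of list members called, given below, are to be read beside these shares. The libraries of the lines did not overlap for 2440 of the DEGs, where 47.8% of all genes tested had no overlap. The largest differences were mostly gains in P10: 345 genes were higher by more than log2 2 and 170 lower, and beyond log2 4 the counts were 85 and 14. The median over all genes tested was 0.01. When libraries were scaled by their totals alone, that median moved to 0.26, and 2208 genes were higher and 625 lower (77.9% of the DEGs higher, against 50.9% with TMM). Without P21 replicate 3 the count was 1373 (585 higher, 788 lower), of which 1181 were among the 2459. At 16 DAS, P10 over WT gave 2605 DEGs (15.8% of the genes tested, 8.1% higher and 7.69% lower) and P21 over WT 21 (0.127%, 0.0667% higher and 0.0606% lower). The WT mean lay nearer to P21 than to P10, on the log2 scale, for 87.3% of the 2459 DEGs and for 66.2% of all genes tested, and these comparisons share libraries. In whole leaves, fewer cells of a type and less RNA per cell cannot be told apart.

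PID itself was at 755, 748 and 882 CPM in P10 replicates 1 to 3, 368 and 631 CPM in P21 replicates 2 and 3, and 3.19, 4.22 and 3.73 CPM in WT. Every library of either line was far above WT, and the lowest P10 library was above both P21 libraries. The difference between the lines was small beside that (log2 ratio 0.67 ± 0.18 SE, adjusted p = 0.013) and stayed under the fold threshold. P21 replicate 2 was the lowest of the 5, and without it the log2 ratio was 0.33 (adjusted p = 0.29), and without P21 replicate 3 it was 1.09 (adjusted p = 0.0019). At 9 DAS PID was at 509.5, 446 and 522 CPM in P10 and 939.8 and 961 CPM in P21, where the P21 libraries were the higher ones (adjusted p = 0.058). The change between the days was called (log2 1.62, SE 0.26, adjusted p = 0.00048). At 9 DAS, however, the lines also differ in their second index, so that line and index cannot be told apart in any value of that day. The label of P21 replicate 2 at 9 DAS also carries another lane mark than all other libraries with values. The part of that difference was not tested.

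Among the kinases related to PID, D6PKL3 was the DEG, at 19.7, 36.4 and 13.1 CPM in P10, against 8.34 and 9.22 CPM in P21 and 9.88, 6.95 and 11.2 CPM in WT (log2 ratio 1.403 ± 0.38 SE, adjusted p = 0.013). The call was lost without P10 replicate 2 and without either P21 library. D6PK, D6PKL1, D6PKL2 and PID2 were tested and not called (log2 -0.05, -0.24, 0.14 and 0.14), and WAG1 and WAG2 had at most 6 reads in any library and were not tested. Of 6 PIN genes tested, PIN7 was higher, at 88.7, 88.9 and 129 CPM in P10, against 53.1 and 56.0 CPM in P21 and 57.1, 59.6 and 55.1 CPM in WT (log2 ratio 0.91 ± 0.27 SE, adjusted p = 0.023). PIN4 was lower, at 42.7, 59.8 and 58.6 CPM in P10, against 101 and 84.5 CPM in P21 and 97.9, 59.3 and 68.6 CPM in WT (log2 ratio -0.77 ± 0.21 SE, adjusted p = 0.014). Both calls were lost without P21 replicate 2, that of PIN7 also without P21 replicate 3 or P10 replicate 3, and that of PIN4 also without P10 replicate 1 and by library totals alone. PIN3, the most abundant PIN gene by CPM, did not differ beyond its spread (log2 0.07, SE 0.25). Of 20 Aux/IAA repressors tested, IAA28 (log2 1.495) and IAA19 (1.68) were higher and IAA17 (-1.10) lower, genes chosen for naming once their values were known. Over all genes tested the share called was 14.9%. The count of Aux/IAA calls is near that share, and the kinase and PIN lists are short. The calls of IAA19 and IAA17 were each lost without P10 replicates 1 or 2 or without either P21 library, and that of IAA17 also without P10 replicate 3.

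**Figure D1:**
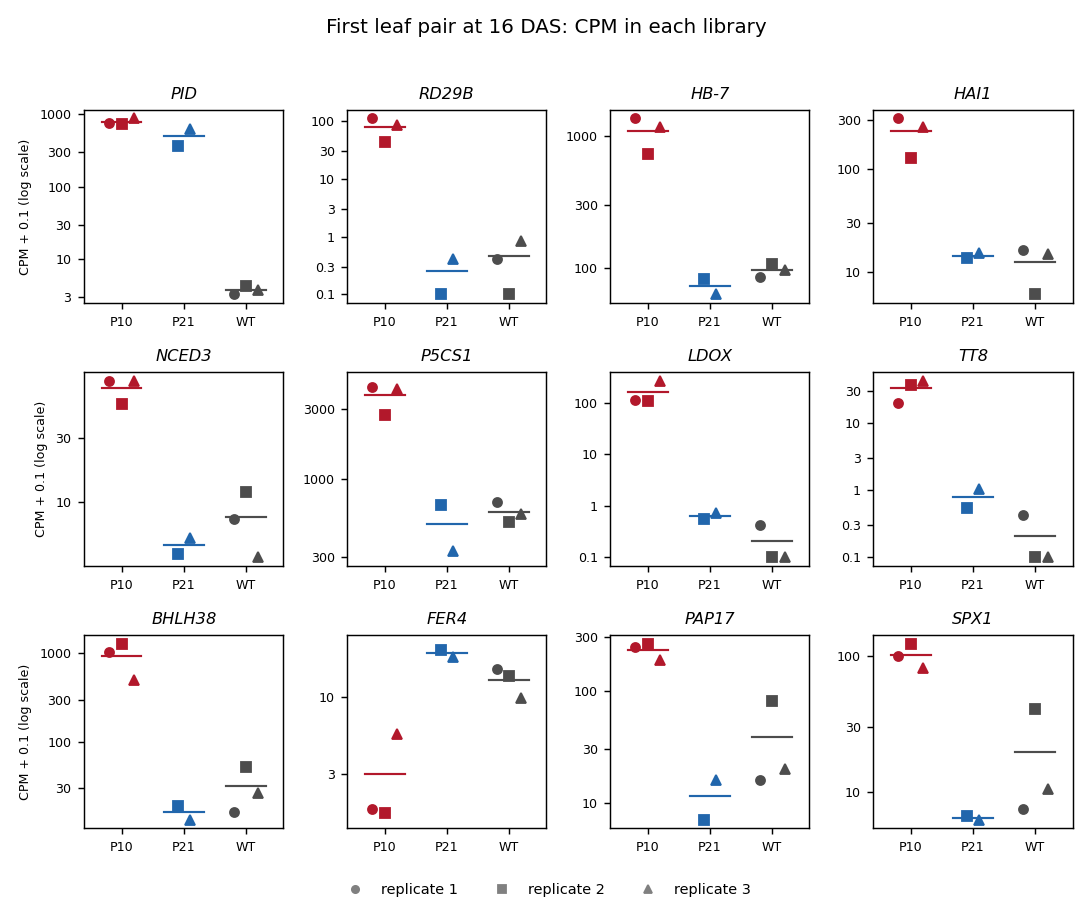
CPM (plus 0.1, log scale) of 12 genes in each library at 16 DAS; points are single libraries (P10, n = 3; P21, n = 2; WT, n = 3) and bars are group means. Apart from PID, which is high in both lines, and FER4, which is low in P10, each gene is high in the 3 P10 libraries and lies near WT or below it in P21.

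Genes of the ABA response were higher in P10. ABA binds the PYR/PYL receptors, which then inhibit the clade A protein phosphatases (PP2Cs). This frees SnRK2 kinases to activate transcription factors on ABA-responsive genes, among them those of the PP2Cs themselves. Of 9 clade A PP2C genes, 7 were tested and all 7 were higher in P10 (median log2 2.04). Of 22 ABA and drought response genes, 21 were tested, 13 were higher and none was lower (median log2 2.77). Against WT the medians were 1.78 in P10 and -0.28 in P21 for the PP2Cs, and 1.73 and -0.59 for the response genes.

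ABI1, the founding member of the phosphatases, was at 473, 316 and 440.2 CPM in P10, against 109.7 and 108 CPM in P21 and 103, 165 and 127 CPM in WT (log2 ratio 1.91 ± 0.33 SE, adjusted p = 0.0012). HAI1 was at 310.3, 129 and 258 CPM in P10, against 13.6 and 15.1 CPM in P21 and 16.3, 5.96 and 14.9 CPM in WT (log2 ratio 3.999 ± 0.66 SE, adjusted p = 0.0019). In both genes the lowest P10 library was replicate 2, and it still stood well above every library of P21 and WT. HAI2 (chromosome 1, 2280835 to 2282828 in the TAIR10 coordinates of the files) had 47.6, 28.4 and 76.1 CPM in P10, against 0.88 and 0.31 CPM in P21 and 0.32, 2.48 and 0.74 CPM in WT. Its 3 reads in P21 give a ratio of pooled CPM of 94.1 (exact 95% counting interval 31.9 to 458.5), and the fitted log2 ratio, which depends on the prior count, was 6.42 (adjusted p = 6.2e-05). ABI2, PP2CA, HAB1 and HAB2 were higher by 2.45, 2.04, 1.59 and 0.98, the last not called without P21 replicate 3. The receptors did not move together: of 9 tested, PYL9 was higher (log2 0.97), PYL8 (-1.004), PYL1 (-1.18) and PYL5 (-3.17) were lower, and PYL3, with no read in P21 or WT, was at least 10.4-fold higher in P10 (7, 27 and 2 reads, against 3 counts over the P21 libraries). The calls of PYL9, PYL5, PYL1 and PYL3 were each lost without P21 replicate 2, those of PYL9 and PYL3 also without P21 replicate 3, and those of PYL9 and PYL5 also without P10 replicates 1 or 3.

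RD29B (chromosome 5, 21237056 to 21239529), a hydrophilic protein gene induced by ABA and desiccation, had the largest fold change of the DEGs with a mean of at least 50 reads over the 5 libraries. It was at 112, 43.3 and 86.0 CPM in P10, against 0 and 0.31 CPM in P21 and 0.32, 0 and 0.74 CPM in WT. P21 held 1 read in all, which gives a ratio of pooled CPM of 405.8 (exact 95% counting interval 72.5 to 16064.0), and the fitted log2 ratio was 8.44 (SE 0.97, adjusted p = 6.8e-05). HB-7 (chromosome 2, 19165403 to 19166949), a homeodomain-leucine zipper factor induced by ABA, was at 1347, 732 and 1164 CPM in P10, against 83.8 and 63.6 CPM in P21 and 85.8, 108 and 97.6 CPM in WT (log2 ratio 3.88 ± 0.32 SE, adjusted p = 9.9e-07). Its P10 libraries all lay above 700 CPM and no other library reached 110. Its paralog HB-12 was higher by 2.23. RAB18, a dehydrin, was at 179.8, 79.3 and 107 CPM in P10, against 33.8 and 9.53 CPM in P21 and 41.1, 28.0 and 41.0 CPM in WT (log2 ratio 2.52 ± 0.49 SE, adjusted p = 0.0032). GOLS2, which makes the osmoprotectant precursor galactinol, was at 169, 99.6 and 129 CPM in P10, against 13.2 and 6.15 CPM in P21 and 12.1, 24.8 and 31.3 CPM in WT (log2 ratio 3.81 ± 0.54 SE, adjusted p = 0.00042). KIN1, KIN2, ERD14, COR15A, COR414-TM1, TSPO, LTP3 and RD29A were also DEGs (log2 4.09, 1.89, 1.54, 2.77, 3.97, 4.74, 3.68 and 1.82). For RD29A the WT libraries (192, 129.6 and 234 CPM) overlapped those of P10 (292, 125 and 277 CPM), and the value set apart was that of P21 (84.7 and 47.0 CPM). COR47, RD26 and ERD10 were not called (log2 0.31, 0.81 and 1.06), and neither was LTI30, a dehydrin with 5, 1 and 23 reads in P10 and none in P21, at least 8.4-fold higher. RD20 (1.97, adjusted p = 0.08), COR15B (3.19, adjusted p = 0.066) and RD22 (0.64, adjusted p = 0.025) did not overlap between the lines but missed a threshold. A fit of the 5 libraries alone called RD20, COR15B and RD26, and did not call RAB18, LTP3 and COR414-TM1. KIN1 and KIN2, and COR15A and COR15B, are adjacent pairs of similar sequence, so the split of reads within each pair is uncertain. The calls of RD29A, COR15A, LTP3 and COR414-TM1 were lost without P21 replicate 3, the last also without P21 replicate 2 or P10 replicate 3.

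Genes with no read at all in P21, against at least 10 in each P10 library, numbered 5: LEA7 (36, 32 and 32 reads in P10, at least 33.5-fold higher) and AT3G17520 (31, 34 and 31 reads, at least 31.2-fold), both of the late embryogenesis abundant protein families that accumulate in drying seeds and stressed leaves, HSFA6A (30, 26 and 51 reads, at least 33.7-fold), a heat shock factor, AT5G50360 (26, 18 and 30 reads, at least 24.7-fold), which has no symbol, and DAA1 (20, 13 and 24 reads, at least 19.0-fold), an ATPase gene. The bound sets P21 at 3 counts over both of its libraries. WT had 0 to 2 reads of each gene in each library. LEA7 was not called (adjusted p = 0.062), although a fit of the 5 libraries alone called it, and the other 4 were called. No gene had the opposite pattern.

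Genes of both the synthesis and the breakdown of ABA were higher. NCED3, the epoxycarotenoid dioxygenase that limits ABA synthesis under drought, was at 81.3, 54.8 and 80.8 CPM in P10, against 3.95 and 5.23 CPM in P21 and 7.33, 11.7 and 3.73 CPM in WT (log2 ratio 3.93 ± 0.40 SE, adjusted p = 2.8e-06). BGLU18, which releases ABA from its glucose ester, was at 139.5, 136 and 281 CPM in P10, against 15.8 and 12.9 CPM in P21 and 35.7, 30.8 and 35.0 CPM in WT (log2 ratio 3.71 ± 0.42 SE, adjusted p = 6.1e-05). CYP707A2, an ABA 8'-hydroxylase of the catabolic route, was at 27.9, 36.0 and 34.9 CPM in P10, against 6.14 and 4.61 CPM in P21 and 4.46, 3.23 and 0.74 CPM in WT (log2 ratio 2.64 ± 0.38 SE, adjusted p = 7.9e-05). CYP707A4 was called on 3 reads in P21, with a ratio of pooled CPM of 15.1 (exact 95% counting interval 4.9 to 75.6), and the call was lost without P21 replicate 3. CYP707A4 had 13, 28 and 11 reads in P10, 2 and 1 in P21, and 9, 21 and 5 in WT. In CPM its WT libraries overlapped those of P10, and P21 was the line set apart. In all, 4 of 9 tested genes of this list were higher and none lower. P5CS1, the enzyme that commits glutamate to proline, the osmolyte of water stress, gained most CPM of any DEG. It was at 4229, 2734 and 4105 CPM in P10, against 677 and 327 CPM in P21 and 705, 517 and 585 CPM in WT (log2 ratio 2.88 ± 0.60 SE, adjusted p = 0.0068), and its call was lost without P21 replicate 3 (log2 2.43).

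ABA-response factors of the bZIP class bind a promoter element with the core ACGTG. That core was searched on both strands in the 250 bases before each gene's start in RefSeq's TAIR10.1 annotation. It was present in 392 of 1226 promoters of genes higher in P10 (32%), 248 of 1205 of genes lower in P10 (20.6%), and 22.9% of all 27443 protein-coding genes. Of the 22 ABA and drought response genes 11 held it, and of the 9 PP2C genes 6. The promoters of RD29B, HAI2 and HB-7 are shown with that of RAB18 as examples of genes whose CPM are given above, chosen with their values known. Each is written 5′ to 3′ toward the gene, with matches to ACGTG or its reverse complement in capitals. RD29B and HAI2 hold 4 matches each, 2 of those in HAI2 side by side, RAB18 holds 3, and HB-7 none within this window (RD29B at chr5:21236771-21237020, plus strand, HAI2 at chr1:2282829-2283078, minus strand, RAB18 at chr5:26519448-26519697, minus strand, and HB-7 at chr2:19166968-19167217, minus strand).
RD29B: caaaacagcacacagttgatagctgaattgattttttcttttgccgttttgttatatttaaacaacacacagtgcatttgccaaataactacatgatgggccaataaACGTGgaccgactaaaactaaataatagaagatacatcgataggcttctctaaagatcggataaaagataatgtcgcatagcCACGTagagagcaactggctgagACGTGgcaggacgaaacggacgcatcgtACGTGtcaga
HAI2: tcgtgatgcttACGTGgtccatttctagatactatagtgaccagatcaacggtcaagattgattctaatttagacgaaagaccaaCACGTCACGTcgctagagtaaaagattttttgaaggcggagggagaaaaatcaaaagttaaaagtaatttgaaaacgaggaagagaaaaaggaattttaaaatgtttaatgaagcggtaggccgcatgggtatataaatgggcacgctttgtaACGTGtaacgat
RAB18: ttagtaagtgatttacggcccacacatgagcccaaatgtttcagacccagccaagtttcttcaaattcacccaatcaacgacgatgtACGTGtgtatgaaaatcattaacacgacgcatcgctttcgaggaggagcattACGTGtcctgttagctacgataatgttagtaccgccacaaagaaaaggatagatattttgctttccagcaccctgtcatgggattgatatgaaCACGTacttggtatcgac
HB-7: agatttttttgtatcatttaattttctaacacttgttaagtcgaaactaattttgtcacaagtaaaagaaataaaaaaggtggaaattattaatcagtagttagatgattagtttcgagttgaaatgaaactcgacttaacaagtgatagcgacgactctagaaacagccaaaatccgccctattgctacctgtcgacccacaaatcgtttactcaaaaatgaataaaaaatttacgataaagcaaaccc
A match is a description of the letters only.

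Anthocyanins are made from phenylalanine by the general phenylpropanoid and early flavonoid enzymes and then by late enzymes that commit the pathway to pigment. A complex of MYB, bHLH and WD40 proteins turns on the late genes, and LBD37 to LBD39, which respond to nitrate, repress it. The calls lay among the late genes. Of 9 late genes, all tested, 6 were higher in P10 and none lower (median log2 5.41), while 0 of 16 early genes were called (median 0.48). Of the early genes 5 had an unadjusted p under 0.05 in edgeR, DESeq2 called 1, and limma on log2(RPKM + 1) called 4. CHS, the chalcone synthase, a gene chosen for naming once its values were known, stood at 801, 614 and 1399 CPM in P10, against 402 and 578 CPM in P21 and 389, 501 and 430.0 CPM in WT (log2 0.94, adjusted p = 0.51).

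DFR (chromosome 5, 17164141 to 17165918), the dihydroflavonol reductase, was at 146, 133 and 417 CPM in P10, against 1.75 and 0.61 CPM in P21 and 0.64, 0.74 and 1.49 CPM in WT (log2 ratio 7.68 ± 1.26 SE, adjusted p = 0.0021). LDOX was at 114, 111 and 268 CPM in P10, against 0.44 and 0.61 CPM in P21 and 0.32, 0 and 0 CPM in WT, a ratio of pooled CPM of 320.8 (exact 95% counting interval 109.5 to 1557.9) over P21 on 3 reads. UF3GT, a glycosyltransferase that adds xylose to the pigment, was at 46.8, 60.6 and 88.3 CPM in P10, against 0.44 and 0 CPM in P21 and 0.32, 0.25 and 0 CPM in WT, with 1 read in P21 and a ratio of pooled CPM of 381.5 (exact 95% counting interval 68.1 to 15100.8). Its call was lost without P21 replicate 3. P10 replicate 3 was the highest library in each of these, and P21 and WT were near 0 in all. UGT75C1, 5MAT and GSTF12, which glycosylate the pigment, add malonate to it and carry it to the vacuole, were higher by 4.48, 6.10 and 5.41. 5MAT had 3 reads in P21 and a ratio of pooled CPM of 75.8 (exact 95% counting interval 25.6 to 369.8). UGT78D2, SCPL10 and BGLU10 of the same list were not called (log2 0.54, 0.25 and 0.14), and UGT78D2 also serves flavonols.

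The regulators split. PAP1, the MYB activator of the pathway, was at 38.6, 27.6 and 77.3 CPM in P10, against 1.32 and 4.304 CPM in P21 and 0.32, 0 and 3.73 CPM in WT (log2 ratio 3.98 ± 0.89 SE, adjusted p = 0.0082). TT8, its bHLH partner, was at 19.7, 37.2 and 42.0 CPM in P10, against 0.44 and 0.92 CPM in P21 and 0.32, 0 and 0 CPM in WT (log2 ratio 5.46 ± 0.63 SE, adjusted p = 1.2e-05). PAP2 had 4, 13 and 54 reads in P10 and none in P21 or WT, at least 18.2-fold higher. LBD39 was lower, at 17.2, 27.2 and 9.11 CPM in P10, against 92.6 and 87.3 CPM in P21 and 93.1, 64.5 and 92.4 CPM in WT (log2 ratio -2.32 ± 0.30 SE, adjusted p = 4.4e-05), and so was LBD38 (log2 -1.96), while LBD37 missed the threshold (-0.59, adjusted p = 0.055). Without P21 replicate 3 the 3 activators were reduced to 1 called, since PAP1 and PAP2 were lost, and PAP1 was also lost without P21 replicate 2. MYBL2, EGL3 and the remaining members were not called, and MYBL2 differed within P21 itself (78.5 and 20.3 CPM).

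At 9 DAS the late genes were expressed in both lines. LDOX was then at 228, 53.0 and 92.7 CPM in P10 and 122 and 365 CPM in P21, and DFR at 234, 52.1 and 105 CPM in P10 and 186 and 410.2 CPM in P21. In P21 and in WT the 16 DAS libraries were near 0, whereas in P10 they overlapped those of day 9. The change of the difference between the days was called for DFR (log2 8.86, adjusted p = 0.0032) and LDOX (log2 9.09, adjusted p = 0.004).

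Iron uptake genes were higher in P10. Under iron shortage, Arabidopsis induces 4 bHLH factors of subgroup Ib (BHLH38, BHLH39, BHLH100 and BHLH101), small IMA peptides that signal the shortage from the shoot, and ferric reductases, and it lowers ferritins, which store iron in plastids. Of 23 genes of the iron deficiency response, 19 were tested, 10 were higher and 1 was lower (median log2 1.48). BHLH38 (chromosome 3, 21084110 to 21085150) was at 1043, 1280.0 and 496 CPM in P10, against 18.9 and 13.2 CPM in P21 and 15.9, 52.6 and 26.8 CPM in WT (log2 ratio 5.88 ± 0.73 SE, adjusted p = 0.00035). BHLH100 was at 1122, 1462 and 481 CPM in P10, against 82.5 and 79.3 CPM in P21 and 89.3, 210.5 and 139 CPM in WT (log2 ratio 3.66 ± 0.63 SE, adjusted p = 0.0025). Within P10 replicate 3 was the lowest library and replicate 2 the highest for both, and within WT replicate 2 was the highest, but no P10 library came near P21. BHLH39 and BHLH101 were higher by 5.43 and 2.196, IMA2 and IMA1 by 2.99 and 1.90, the reductases FRO2 and FRO3 by 2.89 and 1.48, and the ubiquitin ligase gene BTSL1 by 2.53. IMA1 was near the threshold (adjusted p = 0.047) and was lost without P10 replicates 1 or 2 or without either P21 library, BHLH101 was lost without P10 replicate 2 or P21 replicate 3, and IMA2 without P21 replicate 2. IRT1, the root iron transporter, had 10, 38 and 5 reads in P10 and none in P21 or WT, at least 15.2-fold higher. NAS3, a nicotianamine synthase, was the member that was lower, on 2 reads in P10. The ratio of its pooled CPM, here P21 over P10, was 17.8 (exact 95% counting interval 4.5 to 153.5), and the call was lost without P21 replicate 3. IMA3, NAS4, BTS, PYE, BTSL2, NAS1, OPT3 and ZIF1 were not called (log2 1.44, 1.34, 0.68, 0.58, 0.76, -0.56, 0.04 and -0.02). NAS2, MYB10, MYB72 and FIT, which act mainly in roots, were not tested for lack of reads.

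Storage and remobilization genes went both ways. FER4 was lower, at 1.64, 1.53 and 5.55 CPM in P10, against 20.6 and 18.4 CPM in P21 and 15.3, 13.7 and 9.69 CPM in WT (log2 ratio -2.63 ± 0.43 SE, adjusted p = 0.0003), and FER3 was at 28.7, 19.9 and 21.4 CPM in P10, against 57.5 and 79.0 CPM in P21 and 51.0, 72.0 and 55.1 CPM in WT (log2 ratio -1.59 ± 0.23 SE, adjusted p = 7.9e-05). YSL1, a carrier of iron-nicotianamine out of leaves, was at 4.104, 3.45 and 7.53 CPM in P10, against 39.1 and 36.9 CPM in P21 and 38.3, 25.3 and 21.6 CPM in WT (log2 ratio -2.87 ± 0.36 SE, adjusted p = 2.3e-05). These calls were kept whichever of the 5 libraries was left out. NRAMP3 and NRAMP4, which release iron from the vacuole, and YSL3 were higher (log2 1.33, 1.32 and 1.05), and none of the 3 was called without P21 replicate 3, nor NRAMP4 without P21 replicate 2. FER1, the main leaf ferritin, had 0 unique reads in every library although total gene reads, which include reads placed at more than 1 site, were 18, 5 and 39 in P10, 192 and 33 in P21, and 237, 76 and 17 in WT, so its level was not measurable by unique reads.

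Of 11 copper genes tested 4 were higher and 2 lower. COPT2, a plasma membrane copper transporter, was at 54.2, 52.1 and 57.8 CPM in P10, against 17.6 and 20.3 CPM in P21 and 16.3, 18.9 and 17.9 CPM in WT (log2 ratio 1.52 ± 0.23 SE, adjusted p = 0.00012), and YSL2, SPL7 and CCH were higher by 1.80, 0.79 and 0.75. For CCH the WT libraries (666, 684 and 620.0 CPM) overlapped those of P10 (742, 683 and 649 CPM), and P21 was the line set apart (461 and 359 CPM). COPT1, COPT5, COPT6 and CCS were not called (log2 0.06, 0.31, 0.27 and -0.41). Without P10 replicate 1 the 4 calls became 2, since SPL7 and CCH were lost, SPL7 also without P10 replicate 3 or P21 replicate 2 and CCH without P21 replicate 3. Among superoxide dismutases, the iron enzyme FSD1 was lower, at 158, 75.9 and 468 CPM in P10, against 1291 and 1038 CPM in P21 and 1205, 913 and 942 CPM in WT (log2 ratio -2.31 ± 0.53 SE, adjusted p = 0.011), and so was the plastid copper/zinc enzyme CSD2 (log2 -1.83). For FSD1, P10 replicate 3 stood above the other P10 libraries, and the call was lost without P21 replicate 2, as was that of CSD2 without P21 replicate 3. CSD1 was not called (-0.26).

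Phosphate starvation genes were higher as well. When phosphate is short, the MYB factor PHR1 induces acid phosphatases, SPX sensor proteins and enzymes that replace membrane phospholipids by galactolipids and sulfolipids. Of 17 genes 10 were tested, 9 were higher and none was lower (median log2 2.59, against 0.01 for all genes tested). PAP17, a purple acid phosphatase, was at 246, 262 and 188 CPM in P10, against 7.02 and 16.0 CPM in P21 and 15.9, 80.7 and 20.12 CPM in WT (log2 ratio 4.28 ± 0.69 SE, adjusted p = 0.0016). SPX1 was at 99.3, 123 and 81.2 CPM in P10, against 6.58 and 6.15 CPM in P21 and 7.33, 40.5 and 10.4 CPM in WT (log2 ratio 3.99 ± 0.71 SE, adjusted p = 0.0026). The P10 libraries were alike and the P21 libraries low, while WT replicate 2 lay between them and the other WT libraries. GDPD1, a glycerophosphodiesterase, was at 51.7, 71.3 and 32.5 CPM in P10, against 1.75 and 1.54 CPM in P21 and 0.32, 8.69 and 4.47 CPM in WT (log2 ratio 4.95 ± 0.69 SE, adjusted p = 0.00023). PS2, a pyrophosphatase, was at 24.6, 34.5 and 23.0 CPM in P10, against 0.88 and 0 CPM in P21 and 0, 2.23 and 0 CPM in WT, with 2 reads in P21 and a ratio of pooled CPM of 77.5 (exact 95% counting interval 21.1 to 645.0). Against WT the median of the list was 1.64 in P10 and -1.44 in P21. With 1 library left out the count called was 7 to 9.

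PHR1 binds a palindromic element, GNATATNC. It was present in the same 250-base window in 6 of 17 promoters of the list and in 3 of the 9 genes called, in 6.4% of genes higher in P10, 5.2% of genes lower in P10 and 5.5% of all protein-coding genes. The promoters of GDPD1, with 2 matches, PS2, with 1, and SPX1, with none, are shown because these genes had among the largest differences of the list, as had PAP17, which also held none (GDPD1 at chr3:350011-350260, minus strand, PS2 at chr1:27466349-27466598, minus strand, and SPX1 at chr5:6802032-6802281, plus strand). Matches to GNATATNC on either strand are in capitals.
GDPD1: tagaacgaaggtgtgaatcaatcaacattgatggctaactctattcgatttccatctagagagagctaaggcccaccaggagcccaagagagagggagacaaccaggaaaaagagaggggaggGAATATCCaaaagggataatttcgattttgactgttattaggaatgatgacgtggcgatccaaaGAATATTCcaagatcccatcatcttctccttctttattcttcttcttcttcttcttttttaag
PS2: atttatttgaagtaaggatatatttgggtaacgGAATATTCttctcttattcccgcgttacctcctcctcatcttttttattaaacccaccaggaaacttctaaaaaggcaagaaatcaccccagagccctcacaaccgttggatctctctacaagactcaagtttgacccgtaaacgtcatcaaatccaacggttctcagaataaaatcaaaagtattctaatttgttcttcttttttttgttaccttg
SPX1: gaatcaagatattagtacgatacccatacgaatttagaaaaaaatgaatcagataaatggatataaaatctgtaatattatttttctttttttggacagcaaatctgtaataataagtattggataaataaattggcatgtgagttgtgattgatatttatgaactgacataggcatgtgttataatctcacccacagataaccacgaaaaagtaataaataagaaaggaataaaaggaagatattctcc
As above, the match describes letters in this window and no binding was measured.

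**Figure D2:**
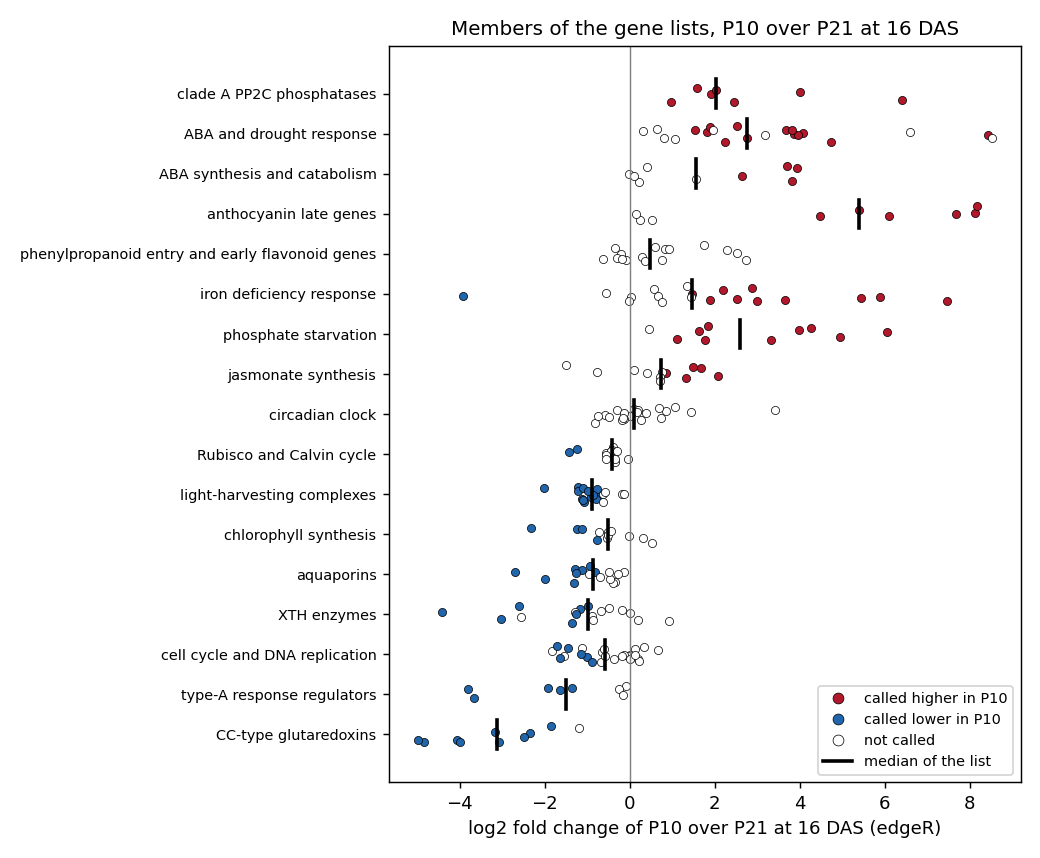
Log2 fold change of P10 over P21 at 16 DAS (edgeR) for the tested members of 17 gene lists; filled points were called higher or lower in P10, open points were not called, and black bars are list medians. ABA, late anthocyanin, iron and phosphate genes lie to the right, clock genes around 0, and photosynthesis, cytokinin response and glutaredoxin genes to the left.

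The genes lower in P10 were led by other functions. CC-type glutaredoxins, small redox proteins found in land plants that are induced by nitrate through cytokinin, followed 1 pattern: of 12 genes 10 were tested, 9 were lower and none higher (median log2 -3.12). GRXS2 was at 31.2, 52.5 and 35.3 CPM in P10, against 214 and 194 CPM in P21 and 275, 241 and 186 CPM in WT (log2 ratio -2.34 ± 0.32 SE, adjusted p = 0.00021). GRXS4 was at 0, 1.53 and 0 CPM in P10, against 18.9 and 19.4 CPM in P21 and 34.8, 33.3 and 40.2 CPM in WT (log2 ratio -4.84 ± 0.56 SE, adjusted p = 1.2e-05). The 4 reads of GRXS4 in P10 were all in replicate 2, and its log2 ratio was -8.66 without that library and -4.16 without P10 replicate 3, still called in each case. P10 replicate 2 was the highest P10 library in both, and all P10 libraries lay below those of P21. GRXS3, GRXS5, GRXS6, GRXS7, GRXS8, GRXS11 and GRXC11 were lower too (log2 -3.08, -4.06, -2.49, -4.99, -3.99, -1.85 and -3.17). GRXS3, GRXS4, GRXS5, GRXS7 and GRXS8 are near-identical neighbors on chromosome 4, so the split of reads among them is uncertain, and GRXS7 had 1 read and GRXS8 3 reads in P10. Their ratios of pooled CPM, here P21 over P10, were 42.5 (exact 95% counting interval 7.2 to 1722.8) and 17.2 (exact 95% counting interval 5.5 to 86.6). GRXS3 was not called without P21 replicate 2.

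Type-A response regulators, the primary cytokinin-response genes, were lower for 5 of 8 tested and higher for none (median log2 -1.5). ARR15 was at 0, 1.92 and 1.19 CPM in P10, against 20.6 and 15.4 CPM in P21 and 22.3, 19.4 and 11.9 CPM in WT (log2 ratio -3.80 ± 0.49 SE, adjusted p = 3.2e-05). ARR7 was at 17.2, 29.9 and 5.94 CPM in P10, against 75.5 and 60.3 CPM in P21 and 53.9, 48.1 and 39.5 CPM in WT (log2 ratio -1.92 ± 0.41 SE, adjusted p = 0.0048). ARR5, ARR6 and ARR4 were lower by log2 -3.65, -1.64 and -1.36, whereas ARR8, ARR9 and ARR16 were not called (-0.09, -0.25 and -0.16). Without P21 replicate 2 the 5 calls became 3, ARR6 and ARR4 being lost. In cytokinin metabolism the synthesis gene IPT3 (log2 -1.96), the degrading oxidase CKX4 (-1.94) and the glucosyltransferase UGT76C2 (-2.66) were lower, of 5 tested. UGT76C2 was at 4.104, 11.9 and 4.36 CPM in P10, against 53.5 and 39.0 CPM in P21 and 37.3, 24.8 and 25.3 CPM in WT, and was the 1 call of the 3 that held without P21 replicate 3.

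**Figure D3:**
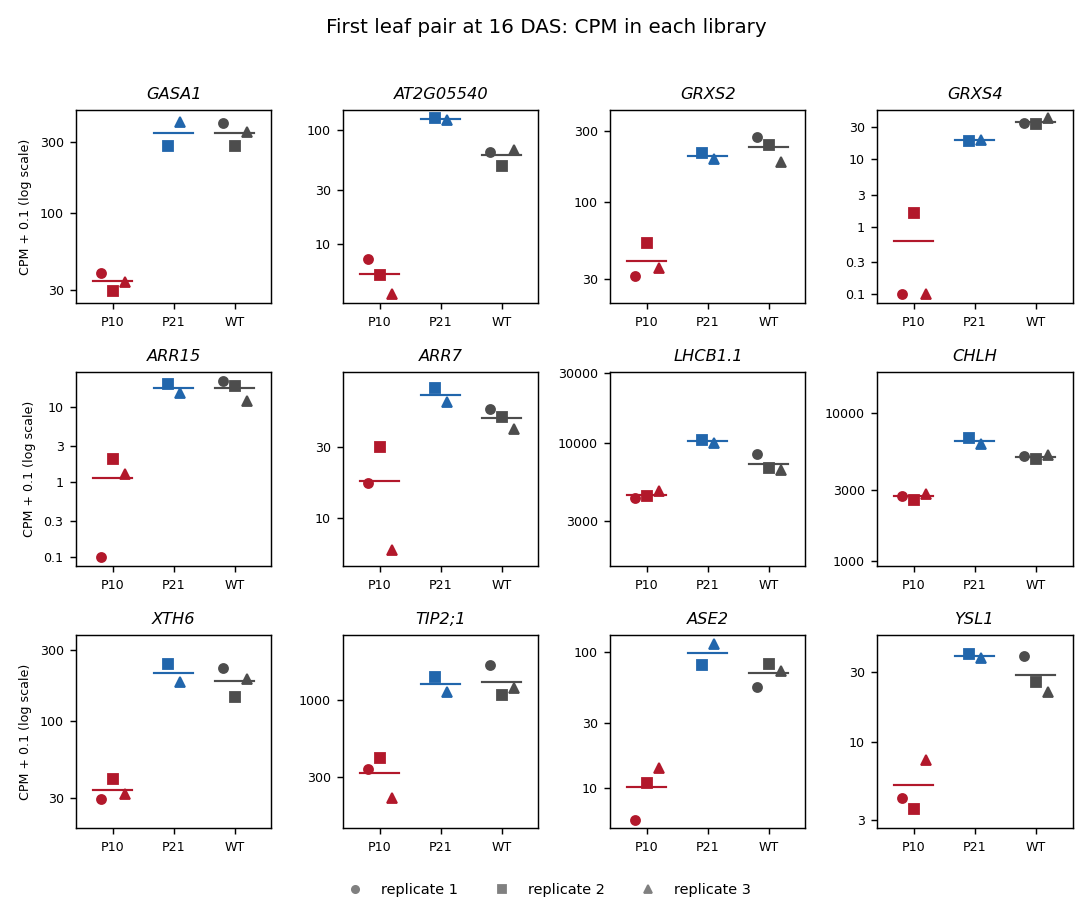
CPM (plus 0.1, log scale) of 12 genes lower in P10, in each library at 16 DAS; points are single libraries and bars are group means. The 3 P10 libraries lie below both P21 libraries in each panel, and the P21 and WT libraries lie close together for most.

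Photosynthesis genes were lower by smaller factors. Light-harvesting proteins bind chlorophyll around the photosystems. Of 18 genes, all tested, 13 were lower and none higher (median log2 -0.88). By library totals alone 7 were lower and none was higher. LHCB1.1 was at 4268, 4402 and 4761 CPM in P10, against 10561 and 10104 CPM in P21 and 8456, 6850.4 and 6648 CPM in WT (log2 ratio -1.21 ± 0.17 SE, adjusted p = 5.9e-05). LHCB2.2 was at 1230.5, 1150.5 and 1604 CPM in P10, against 3413 and 2788 CPM in P21 and 2622, 2119.6 and 2375 CPM in WT (log2 ratio -1.22 ± 0.19 SE, adjusted p = 0.00014). In this list WT lay between the lines: the median over WT was -0.62 in P10 and 0.30 in P21. LHCB1.4 had the largest difference (log2 -2.01), with P21 (3181 and 2428 CPM) above both P10 (682, 774 and 635 CPM) and WT (1162, 949.8 and 1014 CPM). LHCB1.3, the most abundant by CPM, was just past the fold threshold (log2 -0.76) and was lost without P10 replicates 1 or 2 or P21 replicate 2, and LHCB3 (-0.86) was lost without P10 replicate 2 or P21 replicate 2. The LHCB1 copies and the small-subunit genes of Rubisco are near-identical, so reads among copies are uncertain.

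Of 12 genes of chlorophyll synthesis 4 were lower and none higher (2 without P21 replicate 2). CHLH, a subunit of magnesium chelatase, was at 2741, 2564 and 2832 CPM in P10, against 6730.3 and 6094 CPM in P21 and 5087, 4844 and 5147 CPM in WT (log2 ratio -1.24 ± 0.21 SE, adjusted p = 0.00046). CHLI1 was lower by log2 -1.13 and CHLM by -0.77, the call of CHLM being lost without P10 replicate 1 or P21 replicate 2. HEMA1, the first enzyme of the pathway, was at 143, 61.3 and 451 CPM in P10, against 1194 and 1019 CPM in P21 and 898, 883 and 518 CPM in WT (log2 ratio -2.33 ± 0.60 SE, adjusted p = 0.02), with P10 replicate 3 well above the other P10 libraries and the call lost without P10 replicate 1 or either P21 library. Of 12 genes of Rubisco and the Calvin cycle 2 were lower and none higher. RBCS3B, a small subunit of Rubisco, was at 3155, 3984 and 2979.7 CPM in P10, against 8274 and 7671 CPM in P21 and 7101, 6935 and 6023 CPM in WT (log2 ratio -1.24 ± 0.19 SE, adjusted p = 0.00018). The other was RBCS1B (log2 -1.42), named once its values were known, and with any 1 of the 5 libraries left out 1 call was left. Photorespiration recovers carbon from the oxygenase reaction of Rubisco. Of 10 tested genes listed under it 2 were higher, HAOX1 and HAOX2 (log2 1.499 and 1.18, also named once their values were known), and none lower. Neither was called without P21 replicate 2. The list as a whole was not higher in P10 (median log2 -0.31). Its members summed to 21930, 20604 and 22742 CPM in P10, 25333 and 23299 CPM in P21, and 27838, 28036 and 29208 CPM in WT. The 4 mesophyll markers RBCS1A, LHCB1.1, CA1 and LHCB2.1 summed to 26667, 30497 and 30129.8 CPM in P10, 47753 and 45902 CPM in P21 and 46005, 43063 and 38666 CPM in WT, and 2 of the 4 were DEGs (1 without P21 replicate 2 and 1 by library totals alone). Their part in the other differences was not tested. None of the 4 epidermis, 3 guard cell, 2 myrosin cell or 2 tested trichome markers was called. Of 3 genes listed as phloem companion cell markers SUC2 was higher (log2 0.88) and SUC1 lower (-1.55). Whether SUC1 marks these cells in the leaf was not tested. Of 2 tested xylem markers XCP1 was lower (-1.29). These genes were all named once their values were known. The call of SUC2 was lost without P21 replicate 3, and that of XCP1 without P21 replicate 3 or P10 replicate 3. The part of these cell types in the other differences was not tested either.

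Among genes of the cell wall and of water transport, 7 XTH enzymes and 8 aquaporins were lower and the expansins went both ways. XTH enzymes cut and rejoin xyloglucan in expanding walls, and of 17 tested 7 were lower and none higher (4 without P21 replicate 2). XTH6 was at 29.6, 40.2 and 32.1 CPM in P10, against 239.6 and 181 CPM in P21 and 226, 143 and 190.0 CPM in WT (log2 ratio -2.61 ± 0.43 SE, adjusted p = 0.0014). XTH24 and XTH8 were lower by log2 -3.02 and -1.36, and the call of XTH8 was lost without P21 replicate 2. Of 11 alpha-expansins tested, which loosen walls, EXPA16 was higher (log2 2.68) and EXPA3 lower (-1.36), both named once their values were known. None was higher without P21 replicate 2, when 3 were lower, and none lower without P21 replicate 3. Aquaporins are the water channels of the plasma membrane (PIP) and the vacuole (TIP), and of 16 tested 8 were lower and none higher (5 without P21 replicate 2). TIP2;1 was at 341, 405 and 217 CPM in P10, against 1427 and 1119 CPM in P21 and 1707, 1068 and 1199 CPM in WT (log2 ratio -1.99 ± 0.28 SE, adjusted p = 0.00018). PIP2;3 was at 58.3, 42.2 and 43.2 CPM in P10, against 311 and 302 CPM in P21 and 418, 378 and 468 CPM in WT (log2 ratio -2.70 ± 0.61 SE, adjusted p = 0.011), TIP1;1 and PIP1;3 were lower by -1.30 and -1.29, and the calls of PIP2;3 and TIP1;1 were lost without P21 replicate 3, that of TIP1;1 also without P21 replicate 2 or P10 replicate 3. Of 25 cell cycle genes 6 were lower and none higher, at low levels: PCNA2, the sliding clamp of replication, was at 5.75, 6.90 and 9.11 CPM in P10, against 17.6 and 15.7 CPM in P21 and 11.5, 11.4 and 11.2 CPM in WT (log2 ratio -1.14 ± 0.28 SE, adjusted p = 0.0064). MCM2, CYCA1;1 and PCNA1 were lower by -1.71, -1.65 and -1.45, and of the 6 calls 1 was left without P21 replicate 3, 3 without P10 replicate 3, and 3 by library totals alone or by DESeq2.

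GASA1, a gibberellin-regulated peptide gene, was at 39.4, 29.5 and 34.1 CPM in P10, against 283 and 411 CPM in P21 and 406, 281 and 351 CPM in WT (log2 ratio -3.36 ± 0.27 SE, adjusted p = 4.4e-07). P21 and WT overlapped and every P10 library was below 40 CPM. The 4 other GASA genes tested were not called. The DELLA repressors of gibberellin signaling GAI and RGL1 were higher (log2 1.13 and 2.07), as was the receptor GID1A (1.61), while GA20OX1 of gibberellin synthesis was lower (-1.70). GAI was at 51.7, 42.2 and 40.0 CPM in P10, against 18.9 and 21.2 CPM in P21 and 18.8, 20.4 and 14.9 CPM in WT, and was the 1 of the 3 higher genes called without P21 replicate 2. GA20OX1 was lost whichever of the 5 libraries was left out. The ethylene synthesis gene ACS6 (log2 -2.86) was lower and the feedback gene EBF1 (0.80) higher. The call of ACS6 was lost without P21 replicate 2 and that of EBF1 without P10 replicate 3.

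Jasmonate, a hormone of wounding, had 5 of 12 tested synthesis genes higher and none lower. AOC2, an allene oxide cyclase, was at 59.9, 61.3 and 88.3 CPM in P10, against 15.4 and 17.5 CPM in P21 and 16.9, 14.9 and 37.3 CPM in WT (log2 ratio 2.09 ± 0.54 SE, adjusted p = 0.018). The call of AOC2 was lost without P10 replicate 3 or either P21 library. LOX2, AOC1 and OPR3 were higher by 1.67, 1.496 and 1.32. For LOX2, WT replicate 3 lay within the range of P10 in CPM, while the other WT libraries lay near P21. The count was 2 without P10 replicate 3 or P21 replicate 2 and 1 without P21 replicate 3, and LOX2 was lost with any 1 of the 5 libraries left out. Among response genes VSP2, a storage protein marker of jasmonate, was at 20.5, 14.2 and 21.8 CPM in P10, against 0.88 and 1.54 CPM in P21 and 1.27, 0.25 and 0 CPM in WT (log2 ratio 3.84 ± 0.43 SE, adjusted p = 9.6e-06). MYC2 and JAZ12 were higher (1.60 and 1.03) and JAZ9 lower (-1.03), of 10 tested.

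Removal of peroxide and the leaf surface showed changes in both directions. The stromal ascorbate peroxidase SAPX was at 3.28, 1.15 and 20.6 CPM in P10, against 67.1 and 92.5 CPM in P21 and 72.1, 83.4 and 64.1 CPM in WT (log2 ratio -3.14 ± 0.58 SE, adjusted p = 0.0032), with P10 replicate 3 above the other P10 libraries. GPX1, TAPX and MDAR6 were lower (-1.17, -0.82 and -0.76), and DHAR1 and VTC5 of ascorbate recycling and synthesis higher (1.73 and 0.80), VTC5 not without P21 replicate 2. By library totals alone TAPX and MDAR6 were not called, and MDAR6 was also lost without P10 replicate 3 or P21 replicate 3. In cuticular wax synthesis, MYB96, a factor that links ABA to wax, was at 72.2, 47.1 and 51.9 CPM in P10, against 13.6 and 12.3 CPM in P21 and 14.98, 16.1 and 18.6 CPM in WT (log2 ratio 2.12 ± 0.25 SE, adjusted p = 1.4e-05). KCS2 and WSD1 were higher (1.68 and 3.171) and KCS1, KCS5 and LTPG1 lower (-1.53, -1.03 and -0.85). The call of WSD1 was lost without P21 replicate 3 and that of KCS5 without P10 replicate 2 or either P21 library.

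No circadian clock gene was called by edgeR: 0 of 21 passed the thresholds, with a median of 0.10, 2 (ELF3 and PRR3) had an unadjusted p under 0.05, DESeq2 called 1, and a fit of the 5 libraries alone called 3. LHY, a morning gene, was at 832, 900.2 and 959 CPM in P10, 631 and 867 CPM in P21 and 639.6, 884 and 709 CPM in WT. CCA1 was at 629.6, 658 and 557 CPM in P10, 589 and 628 CPM in P21 and 588, 672 and 614 CPM in WT. The standard errors of the log2 ratios of LHY and CCA1 were 1.33 and 0.78. These errors rest on the spread of each gene over all 16 libraries with values, not over the 5 compared alone. The 5 libraries themselves lay closer together than that for both genes. With errors this wide, the absence of a call for LHY and CCA1 does not show that the lines were alike.

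Several genes with large differences belong to none of these groups. AT3G01345 (chromosome 3, 129138 to 130749), which has no symbol, was at 157, 167 and 152 CPM in P10, against 1.32 and 0 CPM in P21 and 0, 0.99 and 0 CPM in WT, a ratio of pooled CPM of 292.9 (exact 95% counting interval 99.9 to 1422.8) over P21 on 3 reads. It was also higher in P10 at 9 DAS, with 312, 259 and 321 CPM in P10 and 6.20 and 5.08 CPM in P21 (log2 5.71, adjusted p = 2.8e-07). AT5G15500, a member of the ankyrin repeat family, was at 186, 102 and 226 CPM in P10, against 2.19 and 0.31 CPM in P21 and 3.19, 1.99 and 2.24 CPM in WT (log2 ratio 7.22 ± 0.51 SE, adjusted p = 6.3e-07). AT4G08570, of the heavy metal transport and detoxification superfamily, was at 142, 63.2 and 194 CPM in P10, against 1.32 and 1.23 CPM in P21 and 0.64, 1.99 and 0 CPM in WT (log2 ratio 6.66 ± 0.62 SE, adjusted p = 1.2e-05). DIP2 (log2 6.77) and the nudix hydrolase NUDT24 were less even within P10. NUDT24 had 2 reads in P21 and a ratio of pooled CPM of 139.8 (exact 95% counting interval 38.4 to 1159.2). The call of each was lost without P21 replicate 3, and that of NUDT24 also without P21 replicate 2. PRXR1, a peroxidase among the genes with the largest CPM gain, was higher by 1.75, a call lost without either P21 library.

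On the lower side AT2G05540, a glycine-rich protein gene, was at 7.39, 5.37 and 3.57 CPM in P10, against 126 and 121 CPM in P21 and 64.1, 48.4 and 67.1 CPM in WT (log2 ratio -4.58 ± 0.27 SE, adjusted p = 2.2e-09). Here P21 lay above WT and P10 below it. ASE2, which starts purine synthesis in plastids, was at 5.75, 10.7 and 13.9 CPM in P10, against 80.7 and 116 CPM in P21 and 55.8, 81.9 and 73.0 CPM in WT (log2 ratio -3.19 ± 0.29 SE, adjusted p = 6.4e-07). BT5, a BTB and TAZ domain protein gene, was at 11.5, 18.4 and 19.8 CPM in P10, against 231 and 111 CPM in P21 and 193, 167 and 175 CPM in WT (log2 ratio -3.31 ± 0.44 SE, adjusted p = 0.00031). NEET, an iron-sulfur protein of plastids and mitochondria, was at 0.82, 0.77 and 21.8 CPM in P10, against 145 and 96.5 CPM in P21 and 109, 96.5 and 47.7 CPM in WT (log2 ratio -3.77 ± 0.84 SE, adjusted p = 0.01), with P10 replicate 3 apart from the other P10 libraries and the call lost without P21 replicate 2.

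For some lower genes the P21 libraries themselves were far apart. XTH22, a touch-induced wall enzyme, was at 4.92, 3.45 and 2.38 CPM in P10, against 134 and 13.2 CPM in P21 and 83.9, 6.70 and 107 CPM in WT (log2 ratio -4.41 ± 1.34 SE, adjusted p = 0.043). BXL1, a xylosidase, was at 9.85, 21.5 and 7.53 CPM in P10, against 303 and 50.7 CPM in P21 and 412, 89.1 and 174 CPM in WT (log2 ratio -3.71 ± 0.83 SE, adjusted p = 0.01). AT4G27450, of the aluminum induced protein family, was at 3.28, 4.98 and 3.57 CPM in P10, against 99.6 and 15.7 CPM in P21 and 117, 18.9 and 54.4 CPM in WT (log2 ratio -3.77 ± 1.05 SE, adjusted p = 0.029), and AT4G36850, a PQ-loop protein gene, had the same shape (log2 -3.03). P21 replicate 2 was far above P21 replicate 3 in each, and the WT libraries were as far apart. Without P21 replicate 2 none of the 4 was called, with log2 ratios of -1.97 for XTH22, -1.92 for BXL1, -1.94 for AT4G27450 and -1.75 for AT4G36850. The calls of XTH22 and AT4G27450 were also lost whichever P10 library was left out, and that of AT4G36850 without P10 replicate 3. Among sugar starvation genes, DIN10 and TPS11, chosen for naming once their values were known, showed this spread too: TPS11 was at 25.4, 31.0 and 15.5 CPM in P10, against 229.9 and 28.3 CPM in P21 and 287, 93.3 and 142 CPM in WT, and was called (log2 -2.42, adjusted p = 0.043) although P21 replicate 3 lay inside the range of P10.

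The difference between the lines at 16 DAS was compared with that at 9 DAS in the same fit. At 9 DAS 6 genes were DEGs (0.0364% of those tested), and the change of the difference between the days was called for 2100 genes (12.7%), 947 toward P10 (5.74%) and 1153 toward P21 (6.99%). Without P21 replicate 3 that count was 1196. HB-7 had 42.8, 46.9 and 43.9 CPM in P10 and 24.5 and 53.6 CPM in P21 at 9 DAS, and its change was 3.69 (adjusted p = 5e-05). BHLH38 had 246, 149 and 168 CPM in P10 and 369.7 and 458 CPM in P21 at 9 DAS, where the P21 libraries were the higher ones, and its change was 7.02 (adjusted p = 0.00075). AT2G05540 had 14.9, 25.0 and 17.5 CPM in P10 and 4.48 and 3.81 CPM in P21 at 9 DAS, where P10 was the higher line (adjusted p = 0.0024), and its change was -6.78 (adjusted p = 4.7e-09). GASA1 had 16.4, 11.6 and 21.9 CPM in P10 and 30.7 and 14.3 CPM in P21 at 9 DAS, when the lines overlapped.

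**Figure D4:**
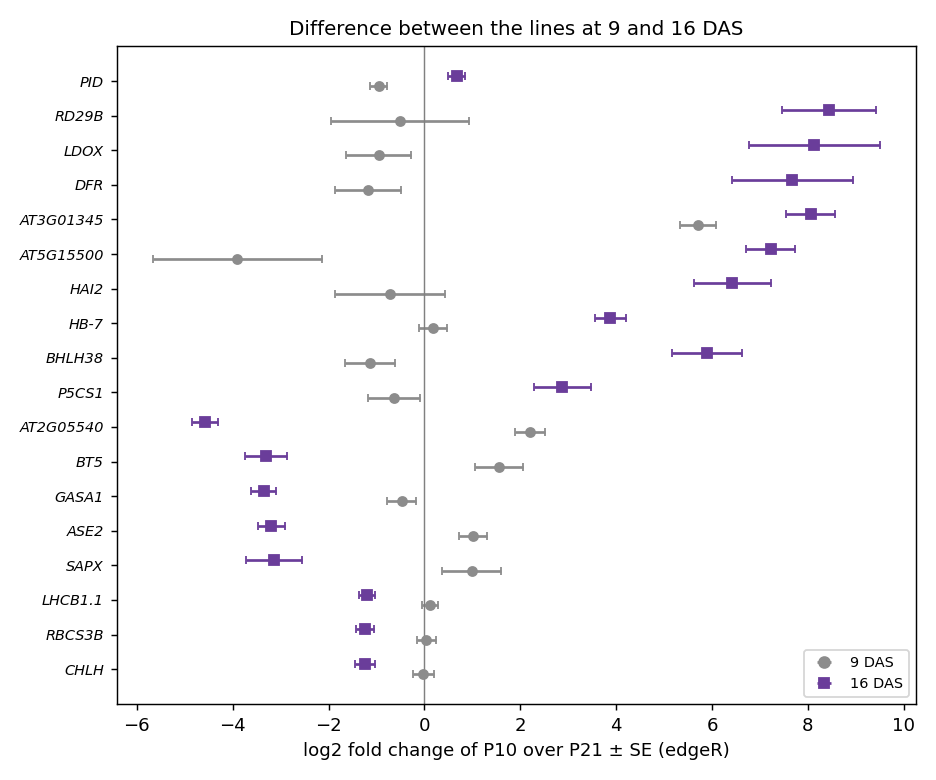
Log2 fold change of P10 over P21 with its standard error (edgeR) for 18 genes at 9 DAS (circles) and 16 DAS (squares). Most genes lie near 0 or with wide errors at 9 DAS and away from 0 at 16 DAS, many of them on the other side of 0. AT2G05540 was called in opposite directions on the days, and AT3G01345 is high on both.

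The DEGs were also set beside leaf maturation in WT, that is WT at 16 over WT at 9 DAS, a comparison that shares no library with P10 over P21. Of the genes higher in P10, 28.8% were higher and 17.7% lower in WT at 16 DAS, and of the genes lower in P10, 28.2% were higher and 12.4% lower, where over all genes tested the shares were 18.6% and 17.3%. Across genes, which are not independent, r was -0.01. In WT, day and index cannot be told apart. Along the chromosomes, the share of DEGs in 110 windows of 1 Mb with at least 20 genes tested was 4.0% to 22.9%, with a median of 14.9%. The highest was chromosome 3, 5000001 to 6000000, with 23 genes higher and 23 lower of 201.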

How the data were processed

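Libraries were made with a stranded mRNA kit (TruSeq) from the first leaf pair, and the reads were mapped by the authors to TAIR10 in CLC Genomics Workbench 6 with default settings. The deposited tables hold whole-number counts per gene region (unique and total gene reads) and RPKM values computed by the authors from those reads. Whether counting used strand is not given in the sources used here, so overlapping antisense genes cannot be told apart. Columns holding the authors' own fold changes and test results (line over WT on each day) were not used, nor were 411 other per-sample columns (exon reads, lengths and other measures, and repeats of WT columns).

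Unique gene reads of 28642 loci in 16 libraries were read, and genes with low counts were removed by filterByExpr (12143 removed, 16499 tested). A mean for each of 3 genotypes on each of 2 days was estimated by edgeR 4.0.16 (R 4.3.3, TMM factors, robust quasi-likelihood, 10 residual degrees of freedom, common biological coefficient of variation 18.8%), with Benjamini-Hochberg adjustment and thresholds of 0.05 and log2 0.75. The lines were compared without a replicate block, which was tried as an alternative. Alternatives were DESeq2 1.42.0, limma 3.58.1 on log2(RPKM + 1) and log2(RPKM + 0.1), other scalings, filters and subsets, and leaving out each library.

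On simulated data for P10 over P21 (16083 genes), 35 of 100 genes changed by log2 1 and 94 of 100 changed by log2 2 were recovered, and 11 of 15883 unchanged genes were called. The changed genes were drawn from those with more reads, and only P10 at 16 DAS was changed, with all other groups set equal. They were a far smaller share of the genes than the DEGs of the data, so these rates need not hold for the data. Unique gene reads of the 5 libraries ranged from 1193042 to 3824764. For genes with 1 to 3 reads in a line, exact 95% intervals of the ratio of pooled CPM are given, and for genes with none a bound at 3 counts over that line's libraries. Intervals and bounds cover counting error only.

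The members and gene lists were chosen with earlier results of these data known. Named genes were PID, the 10 DEGs in each direction with the largest log2 ratio (mean of at least 50 reads, no overlap), the 5 in each direction with the largest difference in CPM, genes with no read in 1 line, up to 4 DEGs in each direction of each list with at least 3, and any member of the anthocyanin late, anthocyanin regulator, iron deficiency, iron storage, PIN, PID kinase, ABA and drought, PP2C, type-A regulator, copper, glutaredoxin, clock and GASA lists. Gene names and promoters came from RefSeq (TAIR10.1), in which 28009 loci matched, and coordinates of genes are those of the files.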

Additional observations from a re-analysis of the deposited data

Results flagged for a closer look

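The difference between P10 and P21 changed from 9 to 16 DAS by the interaction contrast of the same edgeR fit (Benjamini-Hochberg adjusted) for 2100 genes, and for 23 of the 31 genes named as PID or for the largest log2 ratios or differences in CPM. Each value is the log2 ratio of P10 over P21 at 16 DAS minus that at 9 DAS. At 9 DAS the lines also differ in library index, so line and index cannot be told apart in these changes. P21 replicate 2 at 9 DAS also carries another lane mark than the other libraries, and the part of that was not tested.

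PID, the transgene, changed by 1.62. Toward P10 the ABA and osmotic stress genes RD29B, HAI2, HB-7 and P5CS1 changed by 8.94, 7.13, 3.69 and 3.52. The anthocyanin genes UF3GT, LDOX and DFR changed by 9.26, 9.09 and 8.86, and the iron-response factors BHLH38 and BHLH100 by 7.02 and 4.77. AT5G15500, AT4G08570 and PRXR1 changed by 11.12, 9.54 and 1.89.

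Toward P21 the photosynthesis genes LHCB1.1, RBCS3B, CHLH and LHCB1.3 changed by -1.33, -1.28, -1.21 and -0.99. AT2G05540, BT5, BXL1, ASE2, SAPX and GASA1 changed by -6.78, -4.86, -4.44, -4.21, -4.13 and -2.88. Of the other 133 named genes that were DEGs at 16 DAS, 104 were called in the same direction by this contrast and 0 in the opposite one. The difference at 16 DAS, by which these genes were chosen, is itself part of the contrast. The shared direction is therefore largely set by that choice and is no separate result. The same holds for the count among the genes with the largest differences.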

How the results depend on the processing

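The count of DEGs at 16 DAS, 2459, was 1373 (without P21 replicate 3) to 2474 (without P10 replicate 2) with 1 library left out, and the count of genes whose difference changed between the days, 2100, was 1196 to 2181 in the same fits. A test against the fold threshold itself (glmTreat at 0.75) called 547 and 495 genes. By library totals alone the first count was 2833, of which 2208 were higher in P10 (77.9%) and 1877 were among the 2459, and with limma on log2(RPKM + 1) it was 2573 (78.4% higher). DESeq2's size factors and its Wald test gave 2454 and 2330.

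The log2 ratio of PID, 0.67, ranged from 0.329 (without P21 replicate 2) to 1.093 (without P21 replicate 3). It passed both thresholds without P21 replicate 3, by library totals alone (0.914), with the replicate block (0.767), on log2(RPKM + 1) and log2(RPKM + 0.1) (0.97 and 0.974), and, at 0.97, among genes whose RPKM averaged at least 1. With no fold threshold it was called on its adjusted p alone, at 0.67. The cause of these differences was not tested.

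Of 3248 values of named DEGs under the alternatives, 2912 kept their call, 336 did not, and none changed sign. The setting with no fold threshold reuses the main fit, so calls and signs were kept there by construction. The setting with P10 replicates 2 and 3 is the same fit as that without P10 replicate 1, and both are in this tally. Deviations from the line mean, compared between P10 and P21 by replicate number, had correlations of -0.066, -0.037 and -0.06. With only replicates 2 and 3 of P21, these all rest on the difference between those libraries. They cannot say whether the replicate numbers pair the samples. The replicate block gave 2348 and 1754 genes. By library totals alone, 7 Aux/IAA, 5 gibberellin, 5 wax and 5 jasmonate response genes were higher, instead of 2, 3, 3 and 3, and 7 light-harvesting, 2 ascorbate cycle and 3 cell cycle genes lower, instead of 13, 4 and 6. DESeq2 also called 3 cell cycle genes, and limma on log2(RPKM + 1) called 5 aquaporins lower, instead of 8.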
